A study of Mus musculus with 6 samples.

Results

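Enzymes that make serine, asparagine and proline, and those that load carbon units from serine onto folate, were followed as a group of 10 genes in mouse liver. The genes were Asns, Psat1, Phgdh, Psph, Shmt1, Shmt2, Mthfd1, Mthfd2, Aldh18a1 and Pycr1. Every probe set (a set of short probes that reads one transcript) was used if the array's annotation named exactly 1 of these genes for it. That gave 27 probe sets out of 22626 non-control probe sets, covering 9 of the 10 genes. Pycr1 had no such probe set and was not analysed here. Another 2 probe sets that name Phgdh together with a second locus (Gm8096 or Gm6756) were left out by the same rule.

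Livers came from 3 wild-type mice and 3 PiZ mice, all 6 weeks old and on a C57BL/6 background, with 1 one-colour Affymetrix array per animal. PiZ mice carry a transgene for the Z variant of human alpha-1 antitrypsin, a secreted protease inhibitor that misfolds and is retained in the endoplasmic reticulum of hepatocytes; the wild-type controls lack it. The sources used here give neither the sex of the animals nor the promoter and copy number of the transgene, which limit what the line models. The single comparison of the study, PiZ against wild-type, asks which liver genes differ in expression when the mutant protein is made. The labels call the samples biological replicates.

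Serine is made from the glycolytic intermediate 3-phosphoglycerate in a short pathway of consecutive steps, catalysed by PHGDH, PSAT1 and PSPH. Serine hydroxymethyltransferases (SHMT1 in the cytosol, SHMT2 in mitochondria) then convert serine to glycine and pass a carbon unit to tetrahydrofolate, and MTHFD1 (cytosol) and MTHFD2 (mitochondria) interconvert the loaded folates used for purine, thymidylate and methionine synthesis. ALDH18A1 and PYCR1 make proline from glutamate, and ASNS makes asparagine from aspartate and glutamine. Several of these genes are textbook targets of ATF4, the transcription factor translated when eIF2-alpha is phosphorylated under amino acid shortage or endoplasmic reticulum stress. Adult liver is better known for degrading serine and proline than for making them.

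The promoters of the members that rose by at least 2-fold are shown first, because the C/EBP-ATF element through which ATF4 acts was characterised in the Asns promoter. RefSeq start sites (GRCm38.p6) were found for all 10 genes in 11 windows, each running from 250 bases before to 50 bases after the start, and Psat1 had 2 starts. The core of the element, TGATGNAA, was searched on both strands. It was present in 2 of the 11 windows, those of Asns and Pycr1, against 3.97% of all 32851 windows of the same length. Of these 2 genes only Asns has expression values here. In Asns it read TGATGAAA and lay 23 to 16 bases before the start, and in Pycr1 it read TGATGCAA and lay 103 to 96 bases before it, on the strand of the gene in both. The sequences below are the 150 bases just before each start, 5′ to 3′ along the gene, with the match in capitals. Pycr1 is included only because it holds a match.
Asns (chr6:7693210-7693359, minus strand): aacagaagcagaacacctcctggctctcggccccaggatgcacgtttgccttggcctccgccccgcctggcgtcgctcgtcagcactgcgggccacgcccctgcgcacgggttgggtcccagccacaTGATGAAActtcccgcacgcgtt
Pycr1 (chr11:120643749-120643898, minus strand): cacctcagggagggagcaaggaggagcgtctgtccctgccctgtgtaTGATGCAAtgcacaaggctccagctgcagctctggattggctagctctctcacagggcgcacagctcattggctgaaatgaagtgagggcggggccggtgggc
Psat1, lower start (chr19:15924623-15924772, minus strand): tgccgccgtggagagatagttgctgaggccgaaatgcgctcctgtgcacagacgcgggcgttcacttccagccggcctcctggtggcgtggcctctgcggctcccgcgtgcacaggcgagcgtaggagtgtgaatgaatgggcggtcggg
Psat1, upper start (chr19:15925060-15925209, minus strand): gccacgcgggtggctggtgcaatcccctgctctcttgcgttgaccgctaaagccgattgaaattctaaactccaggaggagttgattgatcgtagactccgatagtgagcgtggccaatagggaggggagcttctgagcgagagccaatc
Aldh18a1 (chr19:40588464-40588613, minus strand): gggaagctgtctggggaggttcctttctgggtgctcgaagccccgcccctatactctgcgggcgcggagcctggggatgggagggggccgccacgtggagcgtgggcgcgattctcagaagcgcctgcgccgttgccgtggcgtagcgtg
Mthfd2 (chr6:83317605-83317754, minus strand): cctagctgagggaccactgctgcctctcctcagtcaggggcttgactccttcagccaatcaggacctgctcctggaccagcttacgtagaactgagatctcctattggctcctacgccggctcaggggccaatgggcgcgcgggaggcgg
These letters were not found in the windows of Psat1, Aldh18a1 and Mthfd2, nor in those of Phgdh, Psph, Shmt1, Shmt2 and Mthfd1. Such a match describes the sequence and not binding.

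The data are log2 intensities, and a difference of 1 is a doubling. Fold changes are PiZ relative to wild-type, fitted with limma across all probe sets, with a standard error (SE) and a Benjamini-Hochberg adjusted p. A probe set is said to have risen or fallen when that p was below 0.05, with n = 3 per group in the main fit. Fits that leave out an array have fewer animals in that group. PiZ replicate 1 alone is a single animal, so calls of that fit rest on the spread of wild-type arrays and not of PiZ arrays. Levels are not compared between genes, since probe sets differ in how brightly they read the same amount of RNA. Where a gene has several probe sets, the one with the highest mean over all arrays is called the brightest. PiZ arrays count in that mean, so a change in PiZ can affect which probe set is chosen. Names ending in x or s mark probe sets with probes that can also match other transcripts. In bulk liver, fewer cells of a type and less RNA per cell cannot be told apart.

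The PiZ arrays were not alike: replicate 1 was nearer to wild-type than replicates 2 and 3 were, and RNA quality differed along the same line. Over all probe sets replicate 1 correlated at 0.982 to 0.983 with wild-type, against 0.962 to 0.970 for PiZ replicates 2 and 3, and wild-type arrays correlated at 0.996 to 0.997 with each other. The 3′ minus 5′ difference of the Gapdh and beta-actin control transcripts, which grows as RNA shortens, averaged 2.20 to 2.70 in wild-type. PiZ replicate 1 lay within that range at 2.50, and the other PiZ arrays lay at 4.64 and 4.33. With this difference as a covariate, the PiZ change is therefore set mostly by PiZ replicate 1. That fit and the fit of PiZ replicate 1 alone are not separate checks. Hepatocyte markers (Alb, Ttr, Apoa1 and 5 others) were among the brightest genes in both groups, with 1 of 8 higher (Tat) and 0 lower in PiZ by limma (1 lower at an unadjusted p below 0.05). Summed linear intensity of 7 neutrophil markers was 159 to 218 in wild-type and 537 to 732 in PiZ, with 2 of 7 higher (S100a8 and S100a9). For 7 macrophage markers the sums were 6776 to 7008 and 8303 to 10030, with 3 higher, and for 7 markers of dividing cells 528 to 865 and 856 to 943, with 0 higher by limma (2 at an unadjusted p below 0.05). Of 24 markers of stellate, biliary, endothelial and lymphoid cells 0 were called by limma (3 at an unadjusted p below 0.05), and 1 of 4 erythroid markers was lower. The part of these cells in the results below was not tested.

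Of the 27 member probe sets, 14 rose and 1 fell in PiZ liver. Among all probe sets 8.93% rose and 10.2% fell. By brightest probe set, 5 of 9 genes rose (Asns, Psat1, Aldh18a1, Mthfd2 and Shmt2) and 0 fell in limma (5 and 0 at an unadjusted p below 0.05), where 9.99% of 12393 genes rose and 11.2% fell. By the brightest probe set 4 of the 9 genes did not pass (Phgdh, Psph, Shmt1 and Mthfd1). These counts depend on choosing the brightest over all arrays. By wild-type mean alone, Psat1 would be read by 1451064_a_at (5.09 against 5.05), which did not pass. Shmt1 would be read by 1425178_s_at (10.32 against 10.30), which fell. With the brightest over all arrays, the median change of the 9 genes was 0.64 on the log2 scale, beside 0.08 for all genes. In 17 of 27 probe sets all PiZ arrays lay above all wild-type arrays and in 5 all lay below, against 23.4% and 18.6% of all probe sets. Asns ranked 10, Psat1 32, Aldh18a1 47 and Mthfd2 126 by size of rise among 12393 genes.

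**Figure D1:**
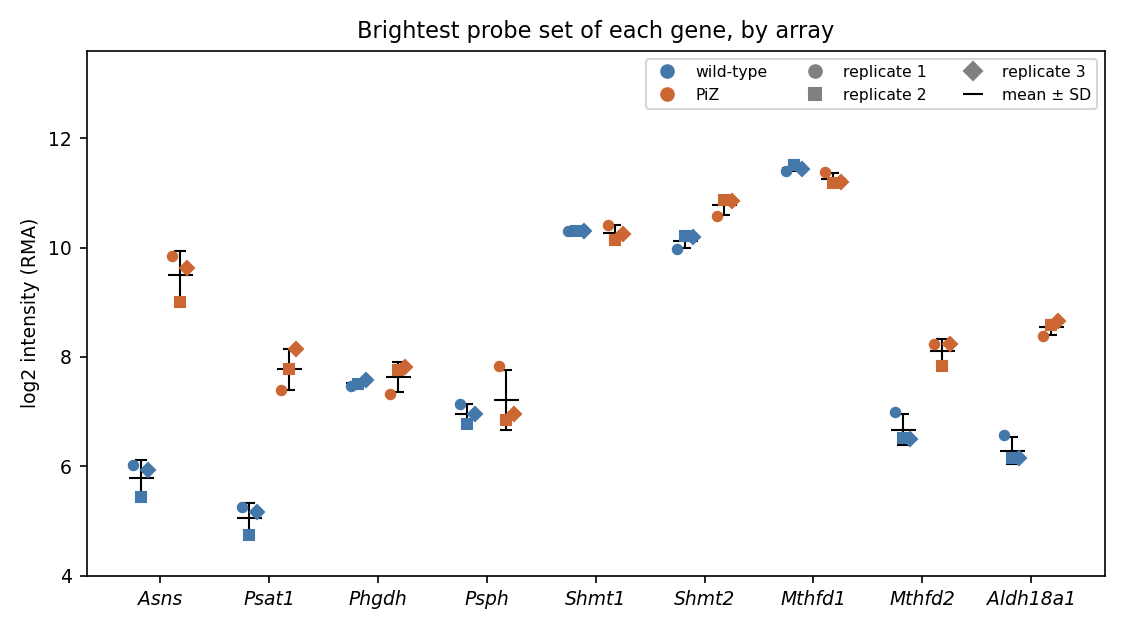
Log2 intensity (vertical axis) of the brightest probe set of each of 9 genes on the 3 wild-type (blue) and 3 PiZ (orange) arrays; marker shape gives the replicate, and black bars give the mean ± SD. Asns, Psat1, Mthfd2, Aldh18a1 and, by less, Shmt2 show groups that do not overlap and lie higher in PiZ, while Phgdh, Psph and Shmt1 overlap.

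Asns, asparagine synthetase, rose most. Its brightest probe set, 1451095_at, read 6.02, 5.44 and 5.93 in wild-type and 9.85, 9.01 and 9.64 in PiZ. The lowest PiZ array thus lay about 3 log2 units above the highest wild-type array. The change was 3.70 (SE 0.25, limma adjusted p = 0.000359), or 13.0-fold with a 95% interval of 8.74 to 19.4. The other probe set, 1433966_x_at, read 5.16, 4.22 and 4.94 against 9.32, 9.12 and 9.81, a change of 4.64 (SE 0.27, limma adjusted p = 0.00022) or 25.0-fold. Both probe sets placed the 3 PiZ animals far above the wild-type animals, but the sizes differed, and the wild-type values of the second lay close to the lower quartile of all probe sets (4.27 to 4.32). Leaving out any single array kept the change of 1451095_at between 3.53 and 3.95.

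The values of 1433966_x_at, the member probe set with the largest change, were closest over the 6 arrays to those of Nupr1, Afp, Tinag, Trib3 and Ddit4. Closeness was measured as the Euclidean distance between log2 values centred on the wild-type mean, and it ran from 0.61 for Nupr1 to 1.44 for Ddit4. Such a distance mostly picks genes with a rise of similar size (4.13 to 4.90 for these 5). Nupr1 encodes a stress-induced chromatin protein, Afp the fetal serum protein alpha-fetoprotein, Tinag a basement membrane protein, Trib3 a stress-induced pseudokinase and Ddit4 an inhibitor of mTORC1. PiZ replicates 1, 2 and 3 exceeded the wild-type mean by 4.86, 4.82 and 5.01 for Nupr1, and by 4.55, 4.35 and 5.03 for Asns 1433966_x_at. For the brightest Asns probe set, 1451095_at, they did so by 4.06, 3.21 and 3.84.

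The serine pathway rose at its middle step and by less, or without passing, at the steps on either side. Psat1, the aminotransferase of the second step, read 5.26, 4.75 and 5.16 in wild-type and 7.40, 7.79 and 8.15 in PiZ in its brightest probe set, 1454607_s_at. All PiZ arrays lay more than 2 log2 units above all wild-type arrays. The change was 2.72 (SE 0.22, limma adjusted p = 0.000829), or 6.61-fold with a 95% interval of 4.65 to 9.40. The other Psat1 probe set, 1451064_a_at, read 5.01, 4.76 and 5.49 against 7.66, 5.77 and 6.07. There PiZ replicate 1 was high, and PiZ replicates 2 and 3, the arrays with the large 3′ minus 5′ difference, lay only just above wild-type. Its change of 1.41 (SE 0.47) did not pass (limma adjusted p = 0.071). With the 3′ minus 5′ difference as a covariate it was 2.66 (limma adjusted p = 0.000836), and in PiZ replicate 1 alone 2.57. On the PiZ side both of these fits rest mostly or only on PiZ replicate 1. The brightest probe set gave 2.44 and 2.35 in the same fits. Without PiZ replicate 1 the change of 1451064_a_at was 0.84 (limma adjusted p = 0.0129).

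Phgdh, the dehydrogenase of the first step, is read by 4 probe sets, all of the x type. The brightest, 1426658_x_at, read 7.46, 7.51 and 7.57 in wild-type and 7.31, 7.76 and 7.82 in PiZ. The groups overlapped, since PiZ replicate 1 lay below every wild-type array and the other PiZ arrays above. The change was 0.11 (SE 0.15, limma adjusted p = 0.609, 95% interval -0.24 to 0.47). The dimmer 1456584_x_at read 5.45, 5.70 and 5.57 against 5.90, 6.12 and 6.51 and rose by 0.60 (SE 0.17, limma adjusted p = 0.0469). That call was lost in 11 of 15 alternative fits, among them every fit without one array except that without PiZ replicate 1 (adjusted p 0.00425 without PiZ replicate 1, and 0.0974 to 0.162 in the other 5). The remaining probe sets, 1454714_x_at and 1437621_x_at, read 0.55 (SE 0.22) and 0.50 (SE 0.21) higher in PiZ and did not pass (limma adjusted p = 0.121 and 0.124); without PiZ replicate 1 they did (0.77, adjusted p = 0.00553, and 0.64, adjusted p = 0.0293). In these 3 dimmer probe sets PiZ replicate 3 was the highest array.

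Psph, the phosphatase of the last step, has 1 probe set. It read 7.15, 6.77 and 6.96 in wild-type and 7.84, 6.84 and 6.95 in PiZ. Only PiZ replicate 1 stood above wild-type, by 0.88, and the other PiZ arrays lay within the wild-type range. The change was 0.25 (SE 0.26, limma adjusted p = 0.512, 95% interval -0.37 to 0.87). It passed with the 3′ minus 5′ difference as a covariate (0.95, limma adjusted p = 0.00535). In PiZ replicate 1 alone it was 0.88, and without PiZ replicate 1 it turned to -0.07 (limma adjusted p = 0.703).

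**Figure D2:**
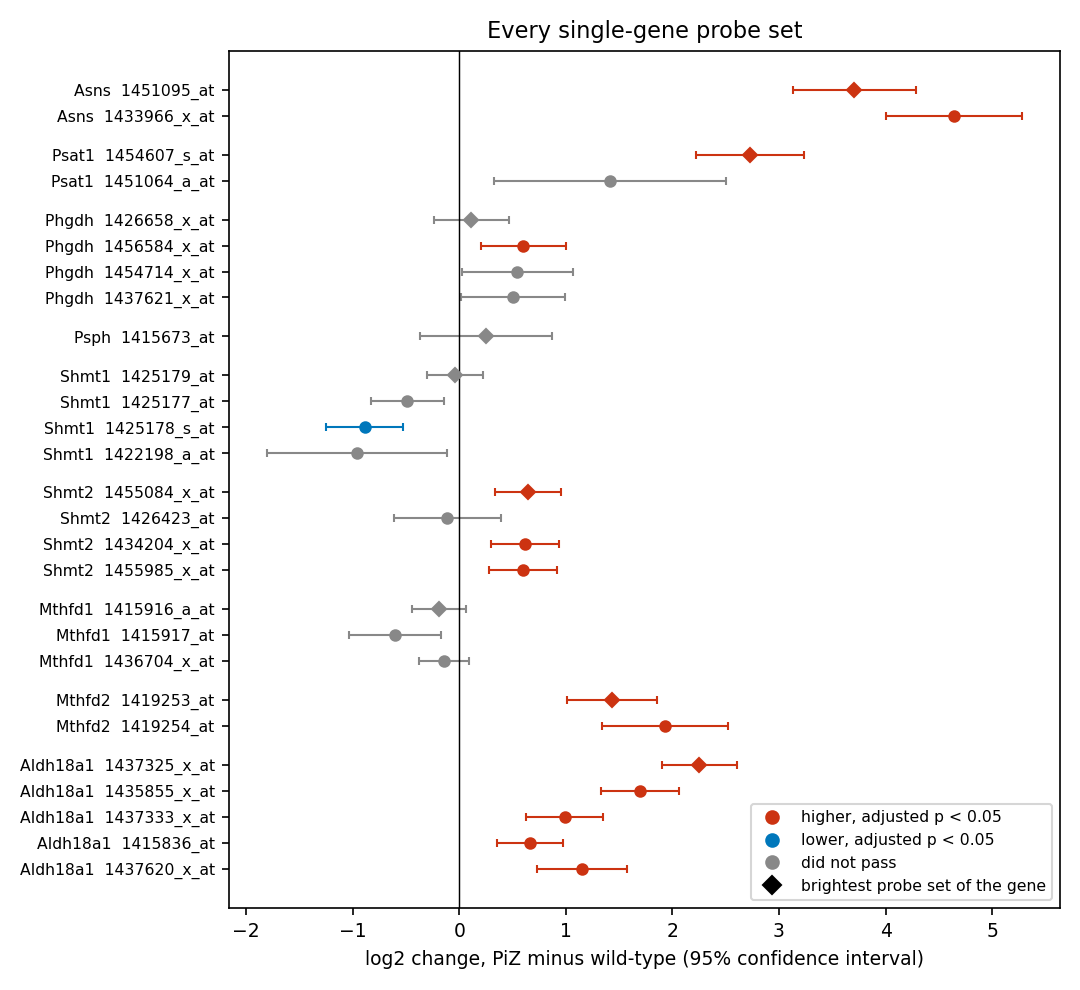
Log2 change, PiZ minus wild-type (horizontal axis), of each of the 27 member probe sets, with 95% confidence intervals from limma; diamonds mark the brightest probe set of a gene, red those that rose, blue the 1 that fell and grey those that did not pass. All probe sets of Asns, Mthfd2 and Aldh18a1 are red, whereas those of Psat1, Phgdh, Shmt1 and Shmt2 disagree on the call.

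In the folate steps, the mitochondrial enzymes rose in PiZ by brightest probe set and the cytosolic ones did not. For Shmt2 the rise was seen only in probe sets of the x type. Mthfd2, the mitochondrial dehydrogenase and cyclohydrolase, known for low expression in most adult tissues, read 7.00, 6.52 and 6.50 in wild-type and 8.23, 7.84 and 8.24 in PiZ in its brightest probe set, 1419253_at. The groups were well apart. The change was 1.43 (SE 0.18, limma adjusted p = 0.00375), or 2.70-fold with a 95% interval of 2.01 to 3.61. The second probe set, 1419254_at, read 5.55, 4.56 and 4.73 against 6.81, 6.76 and 7.06, a rise of 1.93 (SE 0.25, limma adjusted p = 0.00424) or 3.81-fold. Wild-type replicate 1 was the highest wild-type array in both. Mthfd2 passed in every alternative fit that included it, including each fit without one array.

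Shmt2, the mitochondrial hydroxymethyltransferase, rose by a smaller amount in 3 of its 4 probe sets. The brightest, 1455084_x_at, read 9.97, 10.21 and 10.20 in wild-type and 10.58, 10.88 and 10.86 in PiZ. The groups did not overlap, and PiZ replicate 1 was the lowest PiZ array. The change was 0.64 (SE 0.13, limma adjusted p = 0.0171), or 1.56-fold with a 95% interval of 1.26 to 1.93. The 2 dimmer probe sets of the x type rose by 0.62 (SE 0.14, limma adjusted p = 0.022) and 0.60 (SE 0.14, limma adjusted p = 0.0246). The fourth probe set, 1426423_at, read 7.97, 8.02 and 8.27 against 8.43, 7.59 and 7.91, a difference of -0.11 (SE 0.21, limma adjusted p = 0.731), with PiZ replicate 1 above wild-type and PiZ replicate 2 below. The call of 1455084_x_at was lost in 8 of 17 alternative fits, among them that at a threshold of 0.01. Leaving out any one array other than PiZ replicate 1 lost it (limma adjusted p 0.0526 to 0.0826). Leaving out PiZ replicate 1 did not (limma adjusted p = 0.00146). The fit with the 3′ minus 5′ covariate also lost it (0.42, limma adjusted p = 0.0839), as did PiZ replicate 1 alone (0.45).

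Shmt1, the cytosolic hydroxymethyltransferase, gave different answers in its 4 probe sets. The brightest, 1425179_at, read 10.31, 10.30 and 10.30 in wild-type and 10.41, 10.13 and 10.25 in PiZ. The PiZ arrays lay on both sides of wild-type, and the difference was -0.04 (SE 0.11, limma adjusted p = 0.825, 95% interval -0.30 to 0.22). A second bright probe set, 1425178_s_at, read 10.23, 10.52 and 10.22 against 9.52, 9.61 and 9.16 and fell by 0.89 on the log2 scale (SE 0.16, limma adjusted p = 0.0107). All PiZ arrays were lower there, PiZ replicate 1 included. The third, 1425177_at, read 10.11, 10.50 and 10.22 against 9.60, 9.95 and 9.82, also without overlap, and its change of -0.49 (SE 0.15) narrowly failed (limma adjusted p = 0.0563), while 6 of 16 alternative fits called it lower. The dimmest, 1422198_a_at, read 7.25, 6.85 and 7.10 against 7.02, 5.58 and 5.71. There only PiZ replicates 2 and 3 were low, and the change of -0.96 (SE 0.36, limma adjusted p = 0.098) went to 0.03 (adjusted p = 0.918) with the 3′ minus 5′ difference as a covariate and to -1.42 (adjusted p = 0.000191) without PiZ replicate 1. As the mean of its 4 probe sets, Shmt1 fell by 0.59 (SE 0.12, limma adjusted p = 0.0156 over genes).

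Mthfd1, the cytosolic enzyme that combines synthetase, cyclohydrolase and dehydrogenase activities, read slightly lower in PiZ in all 3 probe sets, none of which passed. The brightest, 1415916_a_at, read 11.41, 11.50 and 11.43 in wild-type and 11.39, 11.18 and 11.20 in PiZ. The groups were apart by a narrow margin, and the difference was -0.19 (SE 0.11, limma adjusted p = 0.236, 95% interval -0.45 to 0.06). The probe set 1415917_at read 10.37, 10.45 and 10.46 against 10.24, 9.52 and 9.72, which gave -0.60 (SE 0.19, limma adjusted p = 0.0596), and it passed without PiZ replicate 1 (-0.81, adjusted p = 0.000763). The third probe set, 1436704_x_at, differed by -0.14 (SE 0.10, limma adjusted p = 0.332).

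The mitochondrial and cytosolic members of each pair were also compared within arrays. The log2 difference of Mthfd2 minus Mthfd1 (brightest probe sets) was -4.41, -4.99 and -4.93 in wild-type and -3.16, -3.34 and -2.96 in PiZ. It moved toward Mthfd2 in every PiZ animal, by 1.62 on average, from -4.78 ± 0.32 (SD, n = 3) to -3.15 ± 0.19 (SD, n = 3). Shmt2 minus Shmt1 was -0.34, -0.09 and -0.10 in wild-type and 0.17, 0.75 and 0.61 in PiZ, a shift of 0.68 with no overlap. With the mean of all probe sets of each gene the shifts were 1.99 and 1.03. Each of these 4 comparisons reached the smallest value that an exact two-sided permutation test allows with 3 against 3 animals, p = 0.1 (0.1 after Benjamini-Hochberg adjustment over the 4), so the design cannot reach 0.05 here. A shift within a pair would in any case not tell which of the 2 genes moved.

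Aldh18a1, the synthase of the first committed step from glutamate to proline, rose in all 5 of its probe sets. The brightest, 1437325_x_at, read 6.57, 6.14 and 6.15 in wild-type and 8.39, 8.58 and 8.65 in PiZ. The PiZ arrays lay close together and far above wild-type. The change was 2.25 (SE 0.15, limma adjusted p = 0.000361), or 4.77-fold with a 95% interval of 3.73 to 6.09. The next, 1435855_x_at, rose by 1.69 (SE 0.16, limma adjusted p = 0.00142), from 6.18, 5.67 and 6.08 to 7.62, 7.81 and 7.58. The 3 dimmer probe sets rose by 1.15, 0.99 and 0.66, with wild-type means of 3.38, 4.83 and 4.35. Groups did not overlap in any of the 5. The smallest rise (0.66) was that of 1415836_at, the only probe set of the 5 not of the x type. Only its call was lost when an array was left out, without wild-type replicate 1 (limma adjusted p = 0.08) or 3 (limma adjusted p = 0.0771).

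**Figure D3:**
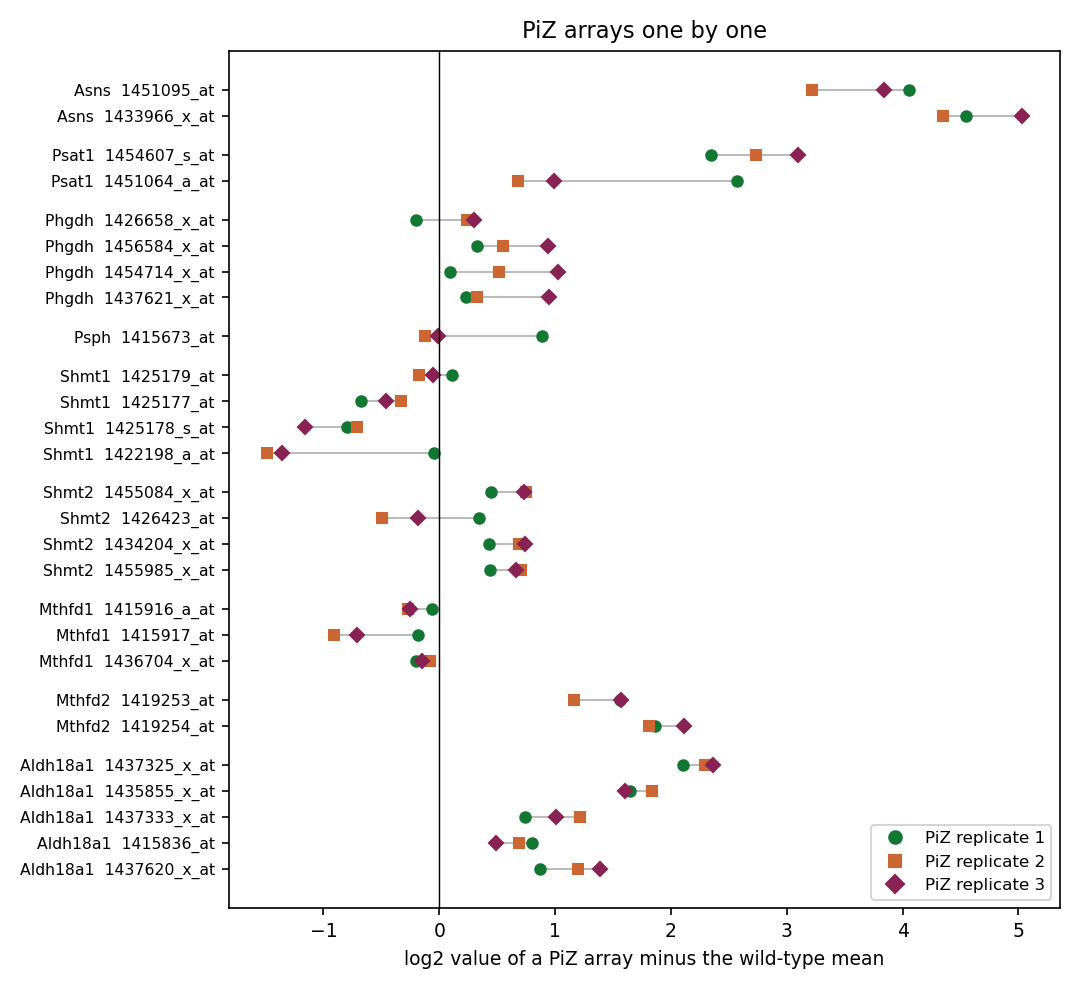
Log2 value of each PiZ array minus the wild-type mean (horizontal axis) for the 27 member probe sets; green circles are PiZ replicate 1, orange squares replicate 2 and purple diamonds replicate 3. For Asns, Mthfd2 and Aldh18a1 all 3 animals lie above 0 in every probe set, while Psat1 1451064_a_at, Psph and Shmt1 1422198_a_at separate replicate 1 (2.57, 0.88 and -0.04) from replicates 2 and 3.

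PiZ replicates 1, 2 and 3 exceeded the wild-type mean by 1.56, 1.17 and 1.57 for Mthfd2 1419253_at, and by 2.10, 2.30 and 2.36 for Aldh18a1 1437325_x_at. With PiZ replicate 1 alone set against wild-type, 12 member probe sets rose and 2 fell. Without PiZ replicate 1 the counts were 17 and 4, and with the 3′ minus 5′ difference as a covariate 12 and 2. By brightest probe set 5 genes rose in each of these 3 fits, but not the same ones. All 5 kept their calls without PiZ replicate 1, whereas with PiZ replicate 1 alone and with the covariate Shmt2 lost its call and Psph gained one. Leaving out any other array gave 4 rising genes and 9 or 10 rising probe sets. Without PiZ replicate 1, 5734 probe sets rose and 4813 fell over the whole array, against 2020 and 2311 with it, so counts of calls depend on that array for all genes.

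Among 7 lists of genes around the members, the calls of the ATF4 pathway were all rises, those of the methionine cycle were all falls, and the other lists held both. For comparison with each list, 9.99% of all 12393 genes rose and 11.2% fell by brightest probe set. Of 12 measured genes of the folate cycle and one-carbon supply, 1 rose and 3 fell, with a median change of -0.20. Ftcd, which degrades histidine-derived formiminoglutamate and loads folate, fell by 1.29 (SE 0.16, limma adjusted p = 0.00343). Ggh, a folate polyglutamate hydrolase, fell by 1.25 (SE 0.22), and Ppat, the amidotransferase that opens purine synthesis, fell by 0.86 (SE 0.19). Tyms, thymidylate synthase, rose by 0.46 (SE 0.12) at a level below the lower quartile of all probe sets in wild-type (3.77). Its 3 probe sets ran from 0.07 to 0.46.

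Of 16 measured genes that use or degrade serine and glycine, 1 rose and 2 fell, with a median of -0.22. Pipox, a peroxisomal oxidase of sarcosine and pipecolate, fell by 1.55 (SE 0.20, limma adjusted p = 0.0042), and Glyctk, glycerate kinase, fell by 1.00 (SE 0.19), although its other probe set read 1.17. Sptlc2, a subunit of the serine palmitoyltransferase that starts sphingolipid synthesis, rose by 0.44 (SE 0.11). In the methionine cycle and transsulfuration 0 of 12 rose (0 also at an unadjusted p below 0.05 in limma) and 4 fell, with a median of -0.37. Those were Mat2b, a regulatory subunit of methionine adenosyltransferase (fell by 1.49, SE 0.35), the phosphatidylethanolamine methyltransferase Pemt (fell by 1.44, SE 0.37), the creatine enzyme Gamt (fell by 0.55, SE 0.16) and the adenosylhomocysteinase Ahcy (fell by 0.54, SE 0.15). With the 3′ minus 5′ difference as a covariate all 4 calls were lost: Mat2b read -0.58, Pemt -0.42, Gamt -0.25 and Ahcy -0.28 (adjusted p = 0.109, 0.102, 0.332 and 0.29). In PiZ replicate 1 alone Mat2b read -0.60, Pemt -0.46, Gamt -0.23 and Ahcy -0.31. Cth, the cystathionine gamma-lyase of transsulfuration, named here after its values were seen, was called higher in both of these fits and lower without PiZ replicate 1.

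Of 11 measured genes of proline and ornithine metabolism, 2 rose and 2 fell, with a median of 0.21. The prolyl hydroxylase subunits of collagen synthesis P4ha2 and P4ha1 rose by 0.70 (SE 0.12) and 0.52 (SE 0.13), though the other P4ha1 probe set read -0.01. The hydroxyproline dehydrogenase Prodh2 fell by 0.58 (SE 0.12) and arginase Arg1 fell by 0.70 (SE 0.16). Among 9 genes of aspartate, asparagine, glutamine and glutamate enzymes, 3 rose and 1 fell, with a median of 0.42. Gfpt1, which opens the hexosamine pathway with glutamine, rose by 1.08 (SE 0.13, limma adjusted p = 0.00359), though its other probe set read -0.12. Gpt2, the mitochondrial alanine aminotransferase, rose by 0.86 (SE 0.21), Asrgl1, an asparaginase, rose by 0.77 (SE 0.16), and Nit2, an omega-amidase, fell by 1.20 (SE 0.23). The 3 probe sets of Gpt2 ran from 0.27 to 0.86, and the 3 of Asrgl1 from 0.13 to 0.77. With the covariate Gpt2 read 0.53 (limma adjusted p = 0.216) and Asrgl1 0.44 (limma adjusted p = 0.0899), so neither passed. In PiZ replicate 1 alone they read 0.56 and 0.45. Of 6 genes of lower glycolysis 1 rose, phosphoglycerate kinase Pgk1 (0.41, SE 0.10), whose 3 probe sets ran from -0.21 to 0.41, and 1 fell, pyruvate kinase Pklr (by 0.91, SE 0.26); the median was 0.11.

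In the ATF4 pathway 11 of 18 genes rose and 0 fell (0 also at an unadjusted limma p below 0.05), with a median of 1.04. Atf3, Nupr1, Ddit4 and Trib3 were the largest, between 4.13 and 5.28. Atf4 mRNA, named here after its values were seen, rose by 0.88 (SE 0.11, limma adjusted p = 0.00416), with its 3 probe sets between 0.57 and 1.16. The rises of Asns (3.70) and Psat1 (2.72) thus lay between those of Atf4 and Atf3. Over all 83 listed genes counted once, 19 rose and 13 fell, beside 9.99% and 11.2% of all genes. The count of falls went to 26 without PiZ replicate 1, to 5 with the covariate and to 7 when only PiZ replicate 1 was used. It was 6 or fewer without PiZ replicate 2, PiZ replicate 3 or any wild-type array (2 to 6). The count of rises was 22 with the covariate and 26 in PiZ replicate 1 alone, but only 14 and 16 of the 19 genes were among them. Of the 25 called genes named from the lists, 13 lost their calls with the covariate (adjusted p 0.0564 to 0.332). Besides the 4 methionine genes, Gpt2 and Asrgl1, these were Ppat, Tyms, Sptlc2, P4ha1, Prodh2, Arg1 and Pklr. All 19 rises and all 13 falls were called without PiZ replicate 1, and the count of rises was 11 to 14 without any other array.

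**Figure D4:**
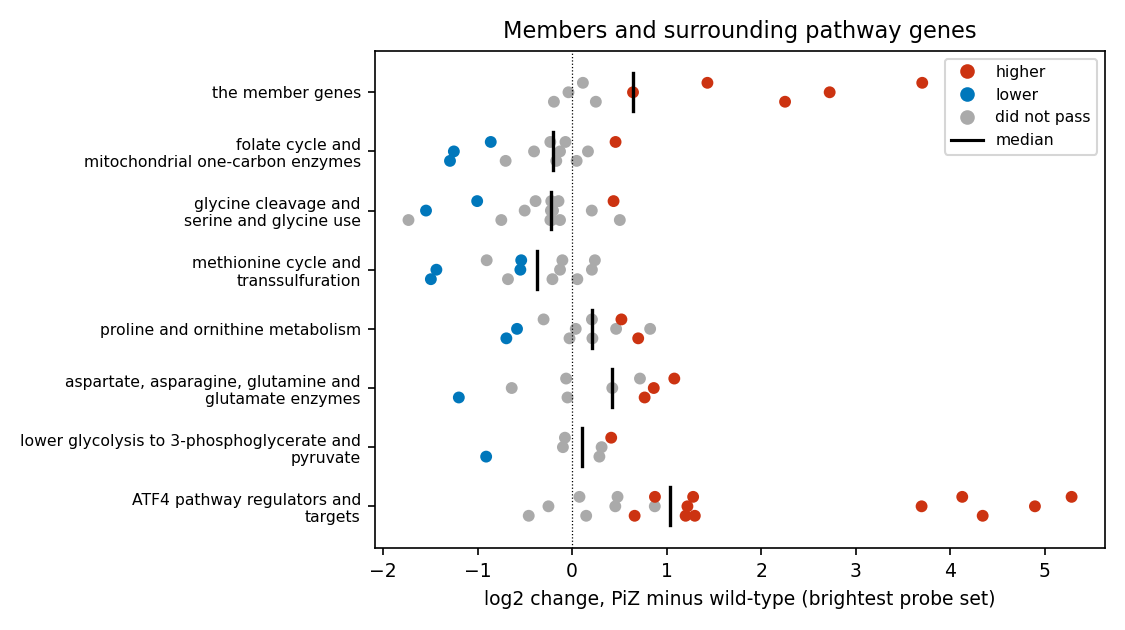
Log2 change, PiZ minus wild-type (horizontal axis), of the brightest probe set of each gene, for the 9 measured members and 7 lists of surrounding genes; red genes rose, blue genes fell, grey ones did not pass, and black bars are medians. The medians of the members (0.64) and of the ATF4 pathway (1.04) lie to the right, and those of the methionine cycle (-0.37) and folate lists (-0.20) to the left of 0.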

How the data were processed

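Liver RNA was turned into biotinylated cRNA and hybridised to Affymetrix arrays, per the labels' protocols. The authors deposited 1 log2 intensity for each probe set and array, made with affy and RMA per the submitters' processing notes; the sources used here do not give versions or a chip definition. RMA gives the probe intensities of all arrays 1 distribution, which hides any shift common to most genes. The probe-set values still differed, with lower quartiles of 4.27 to 4.32 in wild-type and 4.35 to 4.46 in PiZ. The median change was 0.08 over all probe sets and -0.07 over those with a mean of at least 6. Arrays lay between 2.30 and 14.98 with medians of 6.12 to 6.18, and the files hold no detection calls.

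Of 22690 probe sets, 64 controls were left out. By the platform's annotation 20380 probe sets had 1 gene, 691 had several and 1555 had none; 20364 were found in the RefSeq gene table by Entrez identifier.

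PiZ was set against wild-type with lmFit and eBayes of limma 3.58.1 (R 4.3.3), two-sided and without covariates, adjusted over all 22626 probe sets. P-values of this fit rest on the spread between 3 mice per group. Those for PiZ replicate 1 alone rest on the spread of the wild-type mice only. In 20 simulated data sets (22626 probe sets, 200 changed), noise was drawn independently for each probe set, with the same spread in both groups. The tested fit called 62.1% of changes of 1 and 93.2% of changes of 2 on the log2 scale. Of its calls, 5.02% were unchanged probe sets. The simulated sets held no difference shared across an array, such as that in RNA quality. They also held far fewer changes than were called here, so these rates need not hold for the real arrays.

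Named genes were all members, up to 4 called genes per list by size of change (2 by smallest p in a list without calls), and the 5 genes nearest to the member probe set with the largest change. Members, lists and alternatives were chosen with earlier results of these data known. Alternatives covered the choice of probe sets, a minimum mean of 6, centring on 9 reference genes, cyclic loess, another quantile normalization, trend and robust eBayes, array weights, the replicate number as a block, each array left out, PiZ replicate 1 alone, the 3′ minus 5′ difference as a covariate, and a threshold of 0.01. Figures and sequence searches used Python 3.11.15.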

Additional observations from a re-analysis of the deposited data

How the results depend on the processing

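Of the 15 called member probe sets, 9 kept their call and direction under every alternative that included them: both of Asns, both of Mthfd2, the brightest of Psat1 and 4 of the 5 of Aldh18a1. No called member probe set changed direction. Member probe sets that rose numbered 14, and 9 with dim probe sets left out (5 of the 14 are then not tested) or at a threshold of 0.01. Those that fell numbered 1, and 2 without dim probe sets, 4 with array weights, 3 with the replicate block, 2 with the 3′ minus 5′ covariate and 0 at 0.01. Dim meant a mean below 6 over all 6 arrays, PiZ included. Asns 1451095_at and 1433966_x_at, Psat1 1454607_s_at and Aldh18a1 1435855_x_at had wild-type means below 6 (5.79, 4.77, 5.05 and 5.98). They entered the fit without dim probe sets only through their PiZ values. Without one array the rising count was 9 to 17 and the falling count 1 to 4. By brightest probe set 4 to 5 genes rose and 0 fell without one array, and 1 (Shmt1) fell with the mean of a gene's probe sets.

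Listed genes that rose numbered 19, and 10 at 0.01; those that fell 13, and 26 with array weights, 7 in PiZ replicate 1 alone, 5 with the covariate and 2 at 0.01 (11 to 23 rising and 2 to 26 falling without one array). Over all probe sets 2020 rose: 1324 with the mean per gene and 1396 with 1 probe set per gene (fewer tests by construction), 6038 with array weights, 1308 with the covariate and 550 at 0.01. Falls numbered 2311: 1536 with the mean per gene and 1525 with 1 probe set per gene. They numbered 1450 after centring on reference genes, 4948 with array weights, 1504 with the covariate and 583 at 0.01. Without one array, 598 to 5734 rose and 641 to 4813 fell. The causes of these shifts were not tested. Centring on reference genes moved the median of all probe sets to 0.23 from 0.08, and 54.6% of calls were then higher, against 46.6%.

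Deviations from the group mean correlated at 0.30, 0.30 and -0.04 between same-numbered arrays, and at -0.40 to 0.29 between the others. Deviations within a group of 3 are tied to each other, so these values cannot decide whether replicate numbers pair the samples. With the replicate block 15 member probe sets rose and 3 fell (Psat1 1451064_a_at joined the rises at an adjusted p of 0.0357). Dim probe sets, close to the lower quartile of 4.27 to 4.46, limit how well the size of a change is known.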
